A study of Homo sapiens with 12 samples.

Results

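The genes described here encode the subunits and assembly factors of the mitochondrial respiratory chain and of the ATP synthase. A gene was a member when its annotated symbol began with NDUF, with UQCR, with ATP5 or with COX and a digit, or was that of a succinate dehydrogenase subunit or CYC1. This gave 133 probes and 96 genes of the 18852 genes named on the array, and the probe with the highest mean signal stood for each gene. Of these, 88 were detected well enough to be tested and 8 were not. Complex I held 40 of the 96 genes, complex II 3, complex III 10, complex IV 25 and complex V, the ATP synthase, 18.

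The study measured mRNA on Illumina bead arrays in H1, an established human embryonic stem cell line, with the stated purpose of finding mRNAs targeted by OCT4. Knockdown cells had been transfected with an shRNA against OCT4, the pluripotency transcription factor encoded by POU5F1, using the reagent Fugene. Control cells were given an shRNA against luciferase, an enzyme of fireflies with no counterpart in human cells, in the same way. Cells were collected 2 or 3 days after transfection, which gave 4 groups of 3 arrays: control day 2, knockdown day 2, control day 3 and knockdown day 3. The labels name 1 shRNA against OCT4 and no rescue, so effects of losing OCT4 and other effects of this shRNA cannot be told apart. Whether the 3 replicates of a group were separate cultures is not in the labels, and the p-values reflect no more than the variation among these arrays, part of which may be technical.

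The respiratory chain sits in the inner mitochondrial membrane. Complexes I and II feed electrons from NADH and succinate to coenzyme Q, complex III passes them to cytochrome c, and complex IV hands them to oxygen. Complexes I, III and IV pump protons on the way, and the ATP synthase lets the protons flow back through a rotating ring to make ATP. Most of the subunits are encoded in the nucleus, and the arrays read those nuclear mRNAs. Human embryonic stem cells are known for relying strongly on glycolysis while holding mitochondria that can respire.

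The arrays detected 13343 to 14969 of 48803 probes each, with median intensities of 69.6 to 71.8, and their number limits the precision. POU5F1 read 13.09, 13.26 and 13.29 on the control arrays at day 3 and 9.95, 10.52 and 10.29 on the knockdown arrays, as log2 intensity after background correction and normalisation. On the log2 scale it fell by 2.23 at day 2 and fell by 2.96 at day 3 (SE 0.19), leaving 21.4% and 12.9% of the control level. Of 11 embryonic stem cell markers, 9 were lower at day 3 and 0 higher, and their summed level ran from 58130 to 62000 in the controls and from 25770 to 33820 in the knockdown. Markers of several other cell types were higher, with 5 of 5 tested endoderm genes, 4 of 5 mesoderm genes, 4 of 6 fibroblast genes and 3 of 5 trophoblast or amnion genes called higher at day 3, and 1 mesoderm and 1 fibroblast gene called lower. The 4 neuroectoderm markers were not detected on any array. The replicate 3 array of every group stood apart from the other arrays on the second principal component, which held 17.1% of the variance. In bulk RNA, fewer cells of a type and less RNA per cell cannot be told apart.

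At day 3, 13 of the 88 tested members were lower in the knockdown and 1 was higher (adjusted p under 0.05, limma, over 10505 genes). Among all tested genes, 15.3% were called lower and 14.3% higher, 29.6% together. The share of members called lower, 14.8%, was thus close to the background in this fit, while 1.14% were called higher. With median scaling 7 of the 88 were lower, against 11.6% of all genes. With only the compared groups in the fit 7 were lower, against 13.9%, and without background correction 15, against 15.3%. Of the 86 members detected on all 12 arrays, 13 were lower and 1 higher, against 15.3% and 12.2% of genes detected on all arrays. The 13 that fell were NDUFAF6, NDUFAF7, NDUFAF4 and NDUFS3 of complex I, SDHD of complex II, UQCR11, UQCRB and UQCRQ of complex III, COX5A, COX15 and COX7C of complex IV, and ATP5MC1 and ATP5PD of the ATP synthase. COX7A1, a complex IV subunit isoform of heart and skeletal muscle, was the gene that rose.

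The changes of the other members were small. The median change of the 88 was -0.16 at day 3 on the log2 scale, against -0.07 over all tested genes, and 74 of the 88 estimates (84.1%) lay below 0, against 56.6% of all genes. For 73 of the 74 members that did not pass the test, the 95% interval of the change stayed within 2-fold of no change in both directions, and for 51 it stayed within 1.5-fold. The exception was NDUFB1, an accessory subunit of complex I, whose change of -0.58 had an interval of -1.04 to -0.11 (adjusted p = 0.0586).

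**Figure D1:**
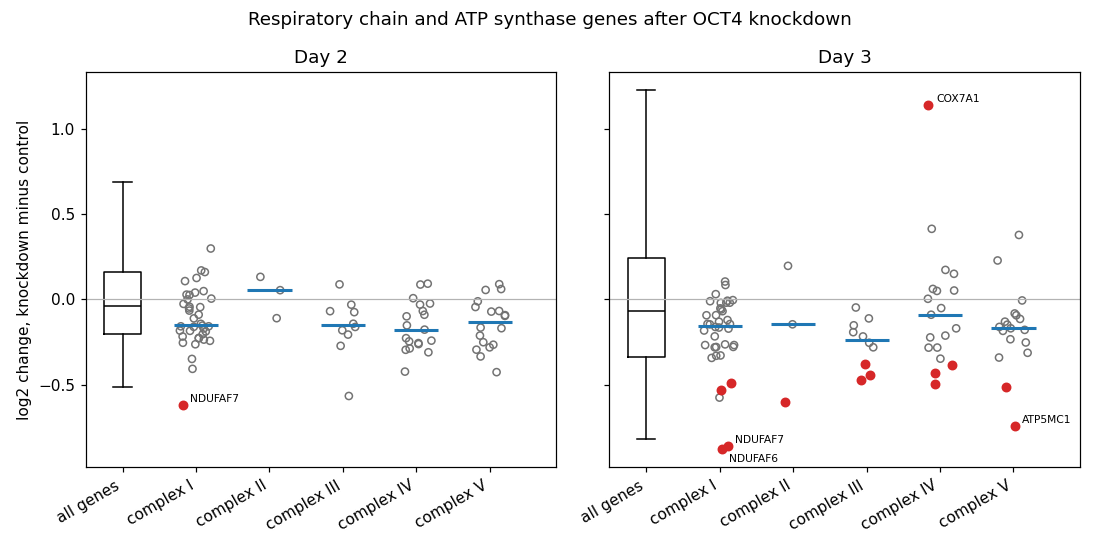
Log2 change between knockdown and control (vertical axis) of each tested member by complex, at day 2 and day 3. Filled red points passed the test, open points did not, blue lines are medians, and the box of all tested genes spans the quartiles with whiskers at the 5th and 95th percentiles. At day 3 the 13 members that fell lie between -0.88 and -0.38, and COX7A1 stands at 1.14.

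The number of calls at day 3 depended on single arrays. It was 7 in place of 14 without control day 3 replicate 1, control day 3 replicate 2 or knockdown day 3 replicate 1. These were 6 lower and 1 higher each time. Of all genes, 12%, 11.2% and 10.8% were then lower and 11.7%, 12.1% and 11.3% higher. It was 9 without knockdown day 3 replicate 2 or 3, and 9 without all the replicate 3 arrays, with 8 lower and 1 higher. Of all genes, 12.1%, 13.2% and 13.5% were then lower and 12.4%, 12.3% and 13.2% higher. With the replicate number as a block, 2 members were higher and 21 lower, against 19.3% and 23.8% of all genes. All 14 calls were among these 23, and the others were ATP5F1D, ATP5MC3, COX10, COX19, NDUFB1, NDUFB6, NDUFS5, NDUFV2 and UQCRC1, of which COX19 was higher.

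Complex I has a core that carries out the electron transfer and proton pumping, a shell of accessory subunits, and factors that build it and then leave. At day 3 the test was passed by 3 of 7 assembly factors, by 1 of 6 core subunits and by 0 of 25 accessory subunits, all lower, against 15.3% of all tested genes. Whether these classes differ was not tested. The medians of the change were -0.28, -0.21 and -0.14 in that order. At an unadjusted p under 0.05, 3 of the 25 accessory subunits were counted, against 4179 of all 10505 tested genes.

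NDUFAF6, an assembly factor of complex I, read 8.03, 8.13 and 8.15 in the controls at day 2 and 7.67, 7.81 and 7.78 in the knockdown. At day 3 it read 8.18, 8.10 and 8.22 in the controls and 7.26, 7.25 and 7.36 in the knockdown. The control arrays of both days were alike, and the knockdown arrays lay below them on both days, lowest at day 3, without overlap. NDUFAF6 fell by 0.88 at day 3 (SE 0.11, adjusted p = 6.6e-05), leaving 54.4% of the control level. At day 2 the change of -0.35 did not pass (adjusted p = 0.0813; 0.0317 with the replicate block). The block pairs same-numbered arrays, which was not taken to hold at day 2.

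NDUFAF7 (chromosome 2, 37231658 to 37271365) encodes a methyltransferase that modifies a core subunit while complex I is being built. Its levels were 10.90, 10.97 and 11.15 in the controls and 10.39, 10.46 and 10.31 in the knockdown at day 2. At day 3 they were 10.68, 10.72 and 11.13 in the controls and 10.07, 9.87 and 10.02 in the knockdown. The groups did not overlap on either day, with control replicate 3 the highest array on both days. NDUFAF7 fell by 0.62 at day 2 (SE 0.15, adjusted p = 0.0166) and by 0.86 at day 3 (SE 0.15, adjusted p = 0.000591). The day 2 call did not hold without control day 2 replicate 3 (change -0.55, adjusted p = 0.0745), without knockdown day 2 replicate 1 (-0.62) or 3 (-0.58), and without all the replicate 3 arrays (-0.52). Of its other kept probes, 1 changed by -0.84 at day 3 (adjusted p = 0.00142 over all kept probes) and 1 by -0.19 (adjusted p = 0.523).

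NDUFAF4 (chromosome 6, 96889315 to 96897891), another assembly factor, read 9.77, 9.77 and 9.42 in the controls at day 3 and 9.23, 9.14 and 8.99 in the knockdown. Every knockdown array was below every control array. It fell by 0.53 (SE 0.14, adjusted p = 0.00999), while its other kept probe gave -0.38 (adjusted p = 0.312). With the mean of both probes the change of NDUFAF4 was -0.46 (adjusted p = 0.0616). At day 2 the chosen probe gave -0.16 (adjusted p = 0.592). For NDUFAF5, an assembly factor that was not called, the chosen probe gave -0.28 at day 3 (adjusted p = 0.268 over all kept probes). A second NDUFAF5 probe gave -0.48 (adjusted p = 0.0262). With the mean of kept probes NDUFAF5 passed the test and NDUFAF4 did not.

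NDUFS3 (chromosome 11, 47579074 to 47584562) encodes a core subunit in the arm that projects into the matrix. Its day 3 levels were 12.61, 12.41 and 12.38 in the controls and 12.08, 12.08 and 11.77 in the knockdown, with replicate 3 the lowest array of each group and no overlap. NDUFS3 fell by 0.49 (SE 0.15, adjusted p = 0.024). Leaving out control day 3 replicate 1 or knockdown day 3 replicate 3 ended the call, with an adjusted p of up to 0.0987.

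**Figure D2:**
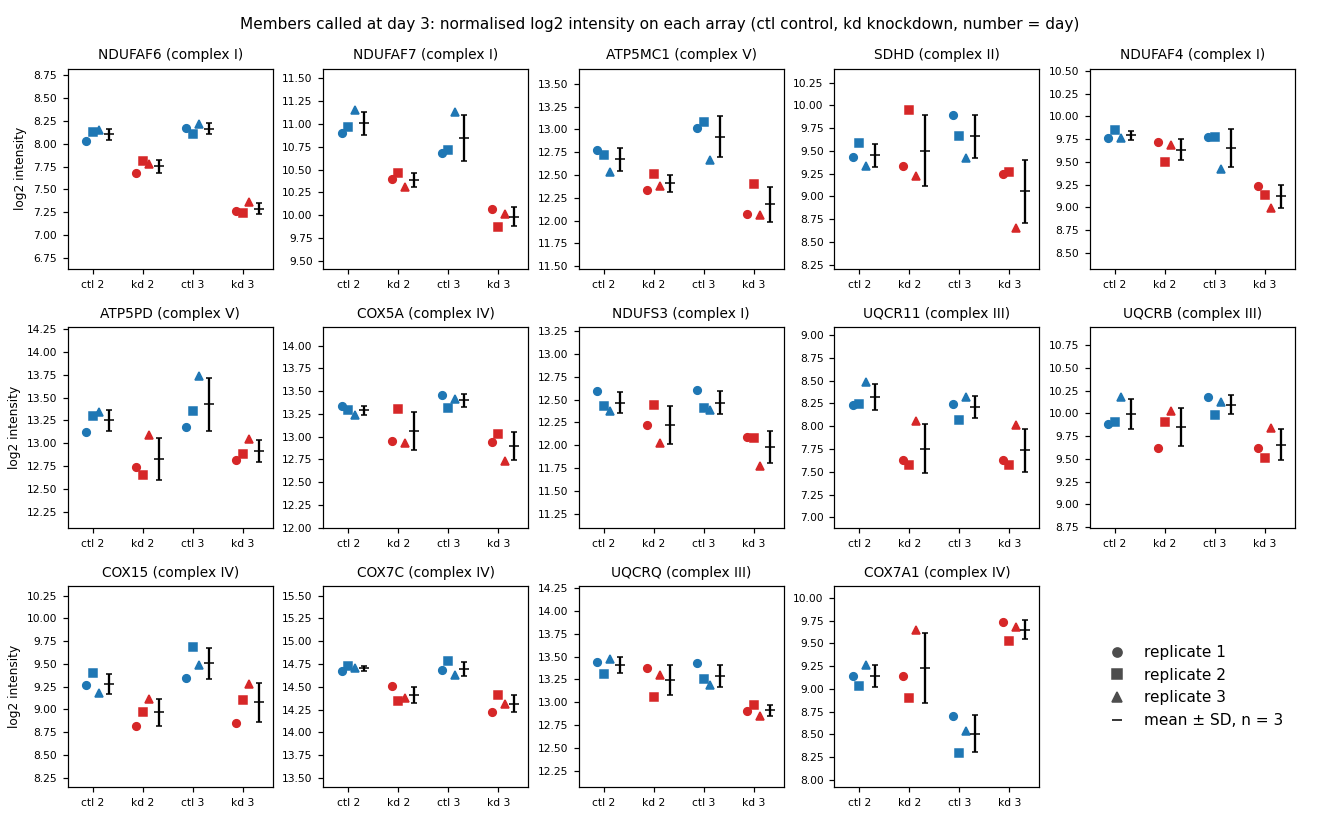
Normalised log2 intensity (vertical axis) of the 14 members called at day 3, on each of the 12 arrays by group, with control arrays in blue, knockdown arrays in red and bars for the mean ± SD of 3 arrays. Every panel spans the same height on the log2 scale, and COX7A1 is the panel in which the knockdown arrays at day 3 lie above the controls.

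Succinate dehydrogenase, complex II, also works in the Krebs cycle. SDHA encodes its flavin-binding catalytic subunit, and SDHC and SDHD encode the small subunits that anchor it in the membrane. The gene of its remaining subunit, SDHB, was not among the members found on the array. SDHD (chromosome 11, 112086873 to 112095794) read 9.89, 9.66 and 9.42 in the controls at day 3 and 9.24, 9.27 and 8.66 in the knockdown. The groups did not overlap, although the knockdown replicate 3 array was far below the others. SDHD fell by 0.60 (SE 0.21, adjusted p = 0.0488), and the call was lost when any of 8 of the 12 arrays was left out, with an adjusted p of up to 0.188 (without knockdown day 3 replicate 3, change -0.40). At day 2 its levels overlapped, at 9.43, 9.58 and 9.33 in the controls and 9.34, 9.95 and 9.22 in the knockdown (change 0.05, adjusted p = 0.933).

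SDHA and SDHC did not pass the test on either day. SDHA changed by -0.15 at day 3, with a 95% interval of -0.52 to 0.22 (adjusted p = 0.567). SDHC read 10.51, 10.50 and 10.43 in the controls at day 3 and 10.68, 10.69 and 10.65 in the knockdown. These groups of SDHC arrays did not overlap, yet the change of 0.20 had an interval of -0.05 to 0.44 (adjusted p = 0.216), and a second probe of SDHC gave -0.11.

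In complex III, 3 of 6 accessory subunits and 0 of 3 core subunits passed the test at day 3, all lower, against 15.3% of all tested genes, and the difference between these small classes was not tested. The 3 members counted as core subunits here, CYC1, UQCRC1 and UQCRC2, had changes from -0.28 to -0.19. Their count at an unadjusted p under 0.05 was 0, against 4179 of all 10505 tested genes. UQCR11 (chromosome 19, 1597169 to 1605462) read 8.24, 8.07 and 8.32 in the controls at day 3 and 7.63, 7.57 and 8.01 in the knockdown. Replicate 3 was the highest array of UQCR11 in all 4 groups. It fell by 0.47 (SE 0.17, adjusted p = 0.0475).

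At day 2 UQCR11 had the widest change in complex III, with levels of 8.24, 8.24 and 8.48 in the controls and 7.63, 7.58 and 8.06 in the knockdown. The change of -0.57 did not pass (adjusted p = 0.0525), but did with the replicate block (adjusted p = 0.00281), without knockdown day 2 replicate 3 (-0.72), without knockdown day 3 replicate 3 (-0.57) and without all the replicate 3 arrays (-0.64). It also passed without background correction and with the mean of kept probes, and so in 6 of 21 alternatives in all. Of these, the block assumes a pairing of arrays that was not taken to hold at day 2. UQCRB, known as a coenzyme Q binding protein, fell by 0.44 at day 3 (SE 0.15, adjusted p = 0.04), from 10.18, 9.98 and 10.12 to 9.62, 9.51 and 9.84. A dimmer kept probe of UQCRB gave -0.28 (adjusted p = 0.401 over all kept probes), and the UQCRB call was lost with the mean of kept probes. UQCRQ (chromosome 5, 132866642 to 132868847), a small accessory subunit, fell by 0.38 (SE 0.13, adjusted p = 0.0403), from 13.43, 13.25 and 13.19 to 12.91, 12.97 and 12.85. Neither UQCRB nor UQCRQ had overlapping groups at day 3. The day 3 calls of UQCR11, UQCRB and UQCRQ were each lost without 9, 6 and 7 of the 12 arrays left out in turn, with an adjusted p of up to 0.16, 0.14 and 0.147.

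The probes of UQCR10, another accessory subunit, differed. Its chosen probe changed by -0.11 at day 3, and a dimmer probe by -0.62 (adjusted p = 0.00991 over all kept probes). No pair of kept probes of a member was called in opposite directions. UQCRHL and the pseudogene UQCRBP1 are close copies of UQCRH and UQCRB, and cross-hybridisation between the copies was not tested.

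Complex IV had 25 genes on the array: 10 subunits found in most tissues, 9 assembly or supercomplex factors and 6 tissue-restricted isoforms. At day 3, 2 of 10 subunits and 1 of 8 tested factors were lower, against 15.3% of all tested genes. COX5A (chromosome 15, 74919791 to 74938073), a matrix-side subunit, read 13.46, 13.32 and 13.42 in the controls and 12.94, 13.03 and 12.73 in the knockdown. The COX5A groups were well apart, and it fell by 0.50 (SE 0.14, adjusted p = 0.0149). It did not pass when control day 3 replicate 1 or knockdown day 3 replicate 3 was left out (adjusted p up to 0.0631), or all the replicate 3 arrays (0.0923).

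COX7C (chromosome 5, 86617941 to 86620962), a small membrane subunit, fell by 0.38 (SE 0.12, adjusted p = 0.0247), from 14.68, 14.78 and 14.63 to 14.23, 14.41 and 14.31. COX15 (chromosome 10, 99694293 to 99732127), an enzyme that makes heme A for the catalytic core, fell by 0.43 (SE 0.15, adjusted p = 0.0452), from 9.35, 9.68 and 9.49 to 8.85, 9.10 and 9.28. The COX7C groups and the COX15 groups did not overlap. COX7C lost its call without 4 of the 12 arrays left out in turn and COX15 without 8, with an adjusted p of up to 0.0909 and 0.187. COX10, which acts one step before COX15 in heme A synthesis, changed by -0.42 at day 2 (adjusted p = 0.136) and by -0.35 at day 3 (adjusted p = 0.12).

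COX7A1 (chromosome 19, 36150922 to 36152447) takes the place of COX7A2 in complex IV of heart and skeletal muscle. It read 9.14, 9.03 and 9.27 in the controls and 9.15, 8.90 and 9.65 in the knockdown at day 2. At day 3 it read 8.70, 8.30 and 8.54 in the controls and 9.73, 9.53 and 9.68 in the knockdown. The groups overlapped at day 2 and were apart at day 3, where the control mean was the lowest and the knockdown mean the highest of the 4 groups.

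COX7A1 rose by 1.14 at day 3 (SE 0.18, adjusted p = 0.000363), to 220% of the control level, and this call held without each of the 12 arrays in turn (change 1.03 to 1.23). At day 2 the change was 0.09 (adjusted p = 0.86). The day 3 change exceeded the day 2 change by 1.05 without passing the test (adjusted p = 0.0507). This difference passed with the replicate block (adjusted p = 0.00486), without knockdown day 2 replicate 3 (1.26) and without all the replicate 3 arrays (1.21). It also passed with the authors' log2 values, without background correction and with the mean of kept probes, and so in 6 of 20 alternatives. That difference includes day 2, where the pairing assumed by the block was not taken to hold. Between the control groups COX7A1 changed by -0.63 from day 2 to day 3 (adjusted p = 0.187; 0.0202 with the block), and between the knockdown groups by 0.42 (adjusted p = 0.222).

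Of the striated muscle markers, 2 of 7 on the array were tested. MYL7, an atrial myosin light chain, rose by 2.98 at day 3 (adjusted p = 4.16e-07), and ACTN2, a sarcomere protein, changed by -0.32 (adjusted p = 0.283). The defining genes MYH6, MYH7, CKM and MYOG were not detected on any array. The summed level of the list ran from 604.3 to 693.1 in the controls at day 3 and from 2906 to 3651 in the knockdown, and at day 2 from 876.9 to 1104 and from 1284 to 2217. At day 3, 5 of the 7 genes in this sum were not detected in either group, and MYL7 was the 1 gene called. The part of these markers in the COX7A1 result was not tested.

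The remaining tissue-restricted isoforms, COX4I2, COX6A2, COX6B2, COX7B2 and COX8C, were not detected on any of the 12 arrays. Their general partners did not pass the test at day 3. COX4I1 changed by 0.06, COX6A1 by -0.05, COX7B by 0.17, COX8A by -0.17 and COX7A2 by -0.28 (adjusted p = 0.104 for COX7A2). COX6B1 changed by 0.05 with a wide interval of -0.74 to 0.84, since its replicate 3 arrays read 13.05 to 13.22 in every group and the others 11.90 to 12.41. COXFA4, the present symbol of NDUFA4, lies outside the naming rule and changed by -0.56 at day 3 (SE 0.13, adjusted p = 0.00507).

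**Figure D3:**
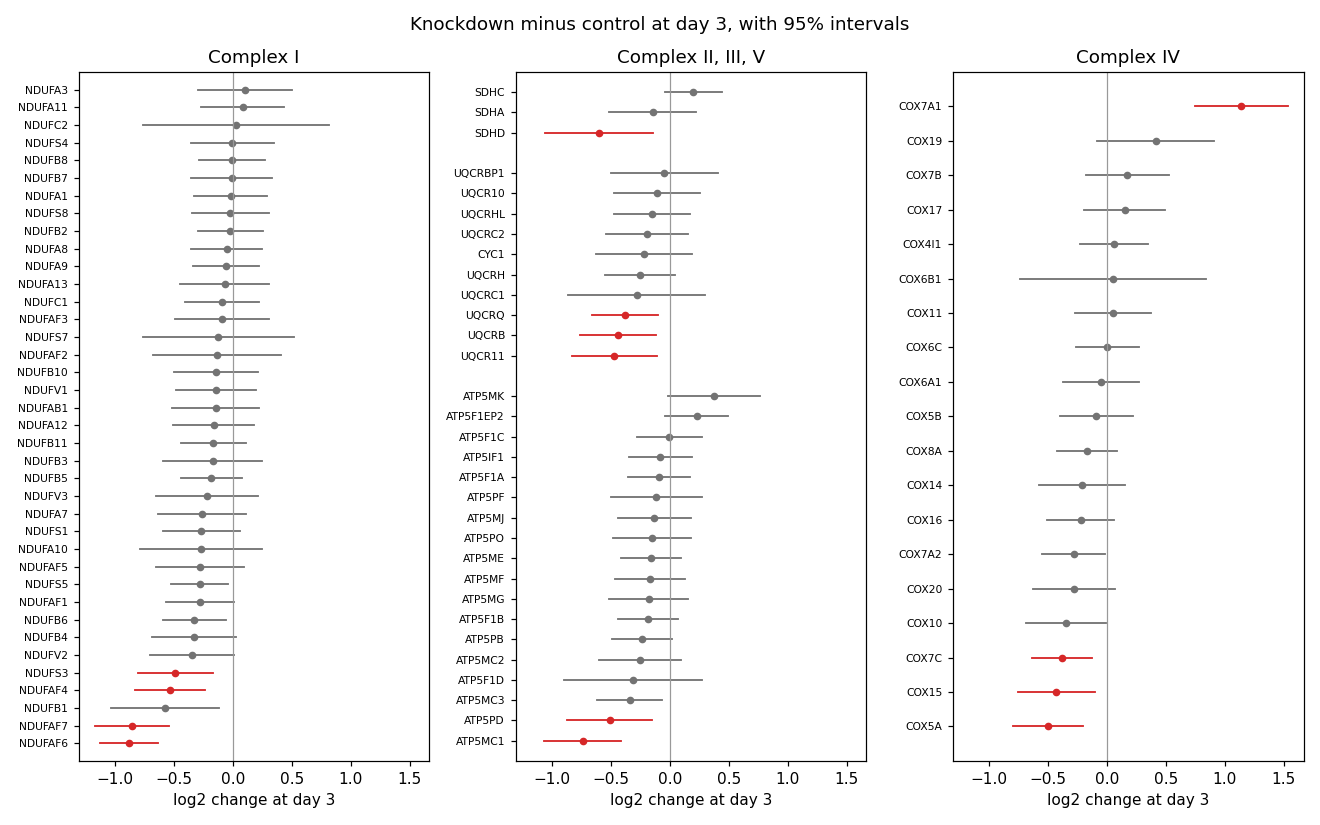
Log2 change at day 3 (horizontal axis) of every tested member with its 95% interval, grouped by complex, in red where the test was passed. The red intervals lie below 0 for 13 members and above 0 for COX7A1, whose interval runs from 0.75 to 1.53.

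The ATP synthase had 18 genes, of which 2 were lower at day 3 and 0 higher, against 15.3% and 14.3% of all tested genes. The catalytic F1 part, which makes ATP, had 0 calls among 4 genes, with a median change of -0.14. The peripheral stalk and membrane subunits had 1 call among 9, and the ring of c subunits 1 among 3. At an unadjusted p under 0.05, 0 of the F1 genes were counted, against 4179 of all 10505 tested genes.

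ATP5MC1, ATP5MC2 and ATP5MC3 are separate genes that encode the same mature c subunit. ATP5MC1 (chromosome 17, 48892787 to 48895871) read 12.77, 12.72 and 12.53 in the controls and 12.34, 12.51 and 12.38 in the knockdown at day 2. At day 3 it read 13.02, 13.08 and 12.66 in the controls and 12.07, 12.40 and 12.06 in the knockdown. The groups did not overlap on either day, and were further apart at day 3. ATP5MC1 fell by 0.74 at day 3 (SE 0.15, adjusted p = 0.0023), to 59.8% of the control level, and its second probe gave -0.99 (adjusted p = 0.00349 over all kept probes).

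The other c subunit genes did not pass. ATP5MC3 read 7.45, 7.47 and 7.57 in the controls at day 3 and 7.20, 7.17 and 7.09 in the knockdown, a change of -0.34 without overlap (adjusted p = 0.061; 0.0278 with the block). ATP5MC2 changed by -0.25 (adjusted p = 0.273), and both of its dimmer probes by -0.64 (adjusted p = 0.171 and 0.0598). No test of the difference between the c subunit genes was made.

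ATP5PD (chromosome 17, 75038863 to 75046969), a subunit of the peripheral stalk, read 13.18, 13.35 and 13.74 in the controls at day 3 and 12.81, 12.88 and 13.05 in the knockdown. Replicate 3 was the highest array of both groups, and the groups did not overlap. ATP5PD fell by 0.51 (SE 0.17, adjusted p = 0.0336), and its second probe by 0.61 (adjusted p = 0.0311). The call was lost without 4 of the 12 arrays left out in turn, with an adjusted p of up to 0.135 (without control day 3 replicate 3, change -0.35). ATP5MK, a small membrane subunit, had the highest estimate of the ATP synthase genes, 0.38, without passing the test (adjusted p = 0.138). The pseudogene ATP5F1EP2, a close copy of the gene of the epsilon subunit, changed by 0.23, and cross-hybridisation was not tested here either.

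At day 2, 1 of the 88 members was called, NDUFAF7, which was lower, and 0 were higher. Over all tested genes 2.97% were called lower and 5.69% higher, 8.66% together. Of the 86 members detected on all 12 arrays, 1 was lower and 0 higher, against 2.64% and 4.53% of genes detected on all arrays. The median change of the members was -0.15, against -0.04 over all genes, and 69 of 88 estimates (78.4%) lay below 0, against 55.4%. The widest estimates of the other complexes were 0.13 for SDHC, -0.57 for UQCR11, -0.42 for COX10 and -0.43 for ATP5PD, none of which passed. With the replicate block, 0 members were higher and 5 lower (NDUFAF6, NDUFAF7, UQCR11, COX10 and ATP5PD), against 9.38% and 7.92% of all genes. The pairing that the block assumes was not taken to hold at day 2. Across the 88 members the changes of both days, which share no array, had a Pearson correlation of 0.459 and a Spearman correlation of 0.398, given as a description.

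The groups of arrays kept apart more often than the test was passed. At day 3, all 3 knockdown arrays lay below all 3 control arrays for 28 members and above them for 4 (SDHC, COX7A1, ATP5F1EP2 and ATP5MK), against 23.8% and 19.2% of all tested genes. At day 2 the same counts were 20 and 1, against 12.1% and 12% of all genes.

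The change from day 2 to day 3 was also compared. The difference between the knockdown effects of both days passed the limma test for 0 of 88 members. Of all genes 2.3% passed, with 1.73% higher and 0.571% lower. Without adjustment 6 members had a limma p under 0.05, against 1287 of all 10505 tested genes. With the replicate block, COX7A1 was higher and NDUFAF6 lower (difference -0.53, adjusted p = 0.132 without and 0.0428 with the block), against 4.72% and 2.48% of all genes. This comparison includes day 2, where the pairing was not taken to hold. Between the control groups 0 members passed in limma, against 0.248% of all genes. Without adjustment 6 members had a limma p under 0.05, against 1145 of all 10505 tested genes. With the block 1 member, COX7A1, was lower and 0 higher, against 2.52% and 1.74% of all genes.

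Between the knockdown groups, 3 members were lower at day 3 than at day 2 and 0 higher, against 1.86% and 3.88% of all genes (5.74% together). With the replicate block the same 3 were lower, against 7.34% of all genes. One of the 3, NDUFB4, passed the detection filter through the knockdown day 2 arrays alone, and among the 86 members detected on all 12 arrays 2 were lower and 0 higher, against 1.63% and 2.84% of such genes. NDUFAF6 fell by 0.47 (adjusted p = 0.0293) and NDUFAF4 by 0.51 (adjusted p = 0.0441), the latter from 9.72, 9.50 and 9.68 to 9.23, 9.14 and 8.99. NDUFB4, an accessory subunit of complex I, had means of 6.03 at day 2 and 5.42 at day 3 and was at least 1.16-fold lower at day 3, a description only, since the filter kept it for its day 2 level. The NDUFAF6 call was lost without any of the 6 knockdown arrays (adjusted p up to 0.115) and the NDUFAF4 call without 10 of 12 arrays (up to 0.143).

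Promoter sequences are shown for members that fell and for 1 that did not pass, as a description of the letters at their starts. The table of promoter windows from RefSeq (GRCh38.p14) held 78 of the 96 members, not COX7A1, with 250 bases before and 50 after each annotated start. Both strands were searched for GCGCATGC, a shorter form of the motif of NRF1, a factor known for binding many respiratory genes, and for the full form, which has GC added at its 3′ end. CCGGAAG, the core of ETS factors, was searched too. The shorter NRF1 form lies inside the full one, so a promoter with the full form counts under both. The octamer ATGCAAAT, read by POU factors such as OCT4, was searched as well.

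The full NRF1 form was found in 7 of 78 member promoters (8.97%), against 1.36% of 27305 promoters in the table. The shorter form was found in 15 (19.2%, against 3.27%) and the ETS core in 23 (29.5%, against 10.7%). The octamer was found in 0 of 78, against 1.8%. These background shares cover all promoters in the table, not only those of genes tested here. Of the 11 members with a promoter in the table that fell at day 3, 1 held the full NRF1 form, 2 the shorter form and 7 the ETS core. Of the 60 that did not pass, the counts were 5, 11 and 16. The median GC content was 61.2% in the members and 58.3% in all promoters. A match describes the letters of this window and is not a measured binding site.

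The promoters of 4 members that fell are printed 5′ to 3′ on the strand of the gene, followed by that of ATP5F1C, an F1 subunit with a change of -0.01 at day 3 (adjusted p = 0.977). Capitals mark the matches on either strand, and NDUFAF7 and ATP5MC1 have none. They lie at chr2:37231408-37231707 (+ strand, NDUFAF7), chr6:96897842-96898141 (- strand, NDUFAF4), chr11:112086623-112086922 (+ strand, SDHD), chr17:48892537-48892836 (+ strand, ATP5MC1) and chr10:7787927-7788226 (+ strand, ATP5F1C).
NDUFAF7: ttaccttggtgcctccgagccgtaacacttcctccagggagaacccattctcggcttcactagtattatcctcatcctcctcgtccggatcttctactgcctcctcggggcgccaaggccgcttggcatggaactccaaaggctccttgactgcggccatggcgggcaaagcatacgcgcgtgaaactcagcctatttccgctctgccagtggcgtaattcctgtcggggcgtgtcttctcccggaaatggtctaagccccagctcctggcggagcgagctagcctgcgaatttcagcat
NDUFAF4: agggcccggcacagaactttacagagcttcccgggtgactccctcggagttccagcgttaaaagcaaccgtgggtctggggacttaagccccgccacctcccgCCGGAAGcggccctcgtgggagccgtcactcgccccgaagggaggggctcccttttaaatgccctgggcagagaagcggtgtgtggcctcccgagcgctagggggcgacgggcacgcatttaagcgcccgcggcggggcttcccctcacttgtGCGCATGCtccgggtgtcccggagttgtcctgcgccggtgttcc
SDHD: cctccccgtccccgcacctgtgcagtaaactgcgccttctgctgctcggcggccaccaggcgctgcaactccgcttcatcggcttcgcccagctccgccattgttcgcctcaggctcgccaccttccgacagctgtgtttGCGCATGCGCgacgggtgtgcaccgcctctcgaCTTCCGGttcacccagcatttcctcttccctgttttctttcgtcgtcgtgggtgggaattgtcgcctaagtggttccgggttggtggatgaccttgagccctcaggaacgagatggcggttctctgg
ATP5MC1: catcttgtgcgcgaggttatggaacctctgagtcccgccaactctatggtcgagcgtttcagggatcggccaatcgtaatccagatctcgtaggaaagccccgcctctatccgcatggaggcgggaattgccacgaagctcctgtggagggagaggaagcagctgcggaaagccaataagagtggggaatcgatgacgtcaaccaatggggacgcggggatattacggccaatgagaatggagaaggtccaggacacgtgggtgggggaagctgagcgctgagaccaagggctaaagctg
ATP5F1C: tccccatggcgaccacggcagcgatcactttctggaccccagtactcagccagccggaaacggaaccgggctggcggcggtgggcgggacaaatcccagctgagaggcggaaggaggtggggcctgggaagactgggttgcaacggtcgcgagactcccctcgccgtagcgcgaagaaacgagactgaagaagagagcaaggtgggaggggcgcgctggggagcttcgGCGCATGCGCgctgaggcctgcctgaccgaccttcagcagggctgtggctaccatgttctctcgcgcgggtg

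In SDHD the full NRF1 form runs from position -110 to -101 and the ETS core from -77 to -71, counted from the annotated start, with the ETS core on the opposite strand. In NDUFAF4 the ETS core runs from -147 to -141 and the shorter NRF1 form from 7 to 14. In ATP5F1C, which did not pass the test, the full NRF1 form runs from -22 to -13. These letters occurred in members that fell and in a member that did not pass, and were missing from the windows of 2 members that fell.

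Genes that supply or build the respiratory chain outside the naming rule were counted at day 3 in 8 lists, against the same background of 15.3% lower and 14.3% higher. In coenzyme Q synthesis 5 of 11 were lower and 1 higher (median -0.38). COQ8A, a kinase-like protein needed for coenzyme Q synthesis, fell by 1.08 (adjusted p = 7.4e-05), COQ3, a methyltransferase of the pathway, fell by 0.68 and COQ10A fell by 0.56, and COQ10B, like COQ10A a coenzyme Q binding protein, rose by 0.38 (adjusted p = 0.0495). In mitochondrial genome expression 4 of 9 were lower and 0 higher (median -0.43). The mitochondrial transcription factor TFB2M fell by 0.74, the mitochondrial helicase TWNK fell by 0.74 and POLG2, an accessory subunit of the mitochondrial DNA polymerase, fell by 0.63.

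Among assembly factors outside the rule, 4 of 28 were lower and 1 higher (median -0.28). COA7 fell by 0.82, the copper chaperone SCO1 fell by 0.65 and COA4 fell by 0.56, while SCO2, a relative of SCO1 that also handles copper for complex IV, rose by 0.50. The electron carriers and nucleotide exchange list had 1 lower and 1 higher of 10 (median -0.25). CYCS, the cytochrome c that links complexes III and IV, fell by 0.77 (adjusted p = 0.00227), and ETFA, which carries electrons from fatty acid oxidation, rose by 0.49 (adjusted p = 0.00806).

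Of the Krebs cycle genes 1 of 12 was lower and 0 higher (median -0.10): IDH3A, a subunit of isocitrate dehydrogenase, fell by 0.78 (adjusted p = 0.000333). Pyruvate entry had 2 of 8 lower and 0 higher (median -0.23). PDP1 fell by 0.76 and PDK3 fell by 0.56, a phosphatase and a kinase that act oppositely on pyruvate dehydrogenase. The nuclear regulators of respiration had 2 of 8 lower and 0 higher (median -0.23). PPARGC1B fell by 1.02 and PPRC1 fell by 0.53, both coactivators of the same family. Antioxidant enzymes of the mitochondrion had 0 of 6 called in limma (median -0.07). They also had 0 at an unadjusted p under 0.05, against 4179 of all 10505 tested genes.

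At day 2 the share over all tested genes was 2.97% lower and 5.69% higher. In the Krebs cycle 1 of 12 was higher and 1 lower, in coenzyme Q synthesis 1 of 11 was lower, and among the assembly factors outside the rule 1 of 28 was lower. SUCLA2, a subunit of succinyl-CoA synthetase, rose by 0.51 and IDH3A fell by 0.66, COQ8A fell by 0.50 and SCO1 fell by 0.47. The other 5 lists had 0 calls in limma. At an unadjusted p under 0.05 they held 1 gene of mitochondrial genome expression, 2 nuclear regulators and 0 in the other 3 lists. Over all 10505 tested genes 2135 were under that p. No test of a list against other genes was made.

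**Figure D4:**
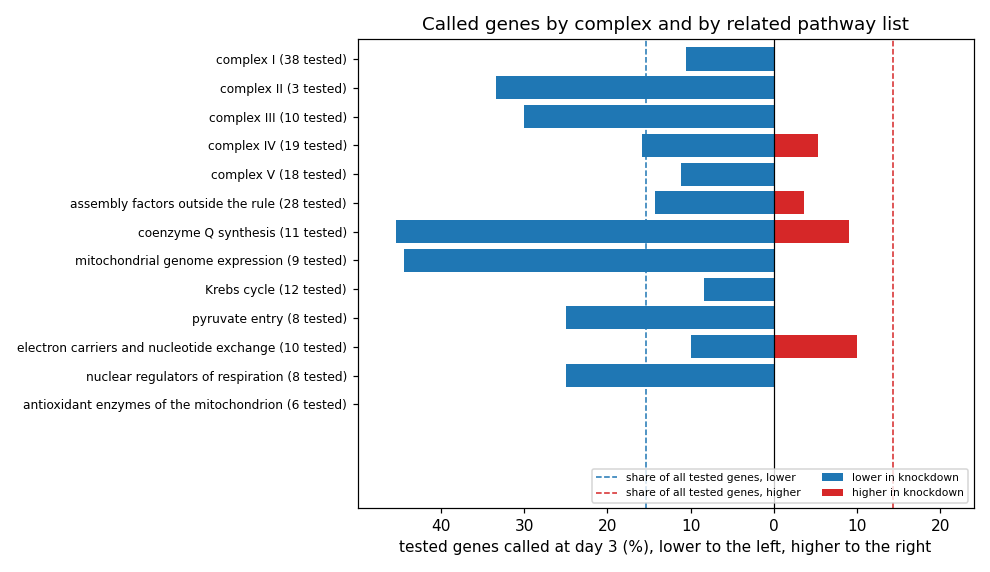
Share of tested genes called at day 3 (horizontal axis, percent), lower in the knockdown to the left in blue and higher to the right in red, for each complex and each related list. Dashed lines mark the shares over all tested genes, 15.3% lower and 14.3% higher, and every bar to the right stops short of the line for higher genes.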

How the data were processed

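Total RNA of 12 samples of H1 cells was labelled as biotinylated cRNA and hybridised to Illumina arrays, per the labels' protocols. The deposited table holds linear probe intensities, with no normalisation recorded per the file headers, and detection p-values, also per the file headers. Not given in the sources used here is the scanner software. A second deposited table holds the authors' log2 values, which equalled log2 intensity minus an array constant and a probe baseline (remainder SD 2.41e-07, column medians -0.0146 to 0.0136). The samples behind that baseline were not determined, and the authors' log2 values served as an alternative only.

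Intensities were background-corrected with neqc of limma 3.58.1 (R 4.3.3) from the detection p-values, with an offset of 16, quantile normalised and put on the log2 scale. A gene was tested where its brightest probe was detected (p under 0.01) on 3 or more of 12 arrays (15407 probes kept, 10505 genes). Symbols came from GEO's platform annotation, in which 28098 probes had 1 symbol, 13 several and 20692 none. All 96 members were matched by Entrez identifier to RefSeq (GRCh38.p14), whose coordinates are given. One limma fit with 4 group means (8 residual and 5.2 prior degrees of freedom) gave two-sided moderated tests with Benjamini-Hochberg adjustment over 10505 genes, and a call was an adjusted p under 0.05. The fit was tested on simulated data. Where no array of a group detected a probe, its fold is a lower bound.

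Members and lists were chosen with earlier results of these data known. Named are up to 4 called members per direction and complex or, with none, the widest estimate, the complex II, c-ring and tissue-restricted genes with their partners, and up to 3 called genes per direction of each list. NDUFAF5, NDUFB1, COX19, ATP5MK, UQCR10, UQCRHL, the pseudogenes, the members called with the block alone and those without overlap were named after their values were seen.

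Groups and replicate numbers came from the sample titles. Deviations of same-numbered arrays from their group means correlated across genes at 0.482, 0.388 and 0.738 for replicates 1, 2 and 3 between control and knockdown at day 3, at 0.241, 0.214 and 0.667 between the control groups and at 0.22, 0.599 and 0.724 between the knockdown groups. The numbers were therefore taken to pair these arrays, although their meaning is not in the labels. At day 2 the values were 0.0225, 0.399 and 0.7, so pairing was not taken to hold there. Alternatives were other normalisations, background corrections, filters, probe summaries, the replicate block, fits of the compared groups alone and leaving out arrays.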

Additional observations from a re-analysis of the deposited data

How the results depend on the processing

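The count of called members was 1 at day 2, 14 at day 3, 0 for the difference between days, 0 between the control groups and 3 between the knockdown groups. At day 3 it was 8 with median scaling, 9 with the authors' log2 values, 23 with the replicate block, 8 with only the compared groups in the fit and 9 without the replicate 3 arrays, an alternative added after seeing the data. In that order, 11.6%, 11.8%, 23.8%, 13.9% and 13.5% of all genes were lower, and 15%, 16.1%, 19.3%, 13.6% and 13.2% higher. At day 2 it was 2 without background correction, without a detection filter or with the mean of a gene's probes, and 5 with the replicate block. In that order, 3.04%, 1.68%, 3.32% and 7.92% of all genes were lower, and 5.46%, 3.04%, 6.04% and 9.38% higher. For the difference it was 1 with the authors' log2 values, without background correction, with the mean of probes or without the replicate 3 arrays, and 2 with the block. In that order, 0.4%, 0.495%, 0.647%, 0.246% and 2.48% of all genes were lower, and 1.93%, 1.77%, 1.86%, 1.24% and 4.72% higher. Between the control groups it was 1 with the block, against 2.52% of all genes lower and 1.74% higher. Between the knockdown groups it was 0 with the authors' log2 values, with only the compared groups and without the replicate 3 arrays. In that order, 1.05%, 0.723% and 1.43% of all genes were lower, and 4.5%, 2.65% and 2.76% higher. Leaving out each array in turn gave 0 to 2 at day 2, 7 to 15 at day 3, 0 to 1 for the difference, 0 to 0 between the control groups and 0 to 2 between the knockdown groups. Of all genes, the fits at day 2 called 1.75% to 3.15% lower and 3.95% to 5.84% higher. Those at day 3 called 10.8% to 16.1% lower and 11.3% to 14.8% higher. Those between the knockdown groups called 0.663% to 1.88% lower and 2.16% to 3.91% higher. Fewer arrays or groups entered the fit in some of these alternatives but not in all, and the cause of the shifts was not tested.

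Over 21 alternatives the day 3 calls of COX7A1, NDUFAF6, NDUFAF7 and ATP5MC1 held, and that of NDUFAF4 was lost with the mean of probes alone. Among the genes tried, the sign changed for uncalled day 2 estimates of SDHD and COX7A1. With an array left out, these ran from -0.17 to 0.19 for SDHD and from -0.12 to 0.25 for COX7A1. SDHD was -0.0040 without control day 2 replicate 3 and -0.17 without knockdown day 2 replicate 2, and COX7A1 was -0.12 without knockdown day 2 replicate 3 and -0.063 without the replicate 3 arrays. With median scaling 68 of 88 members lay below 0 at day 3, and with the authors' log2 values 67. With the replicate block no call of a member at day 2, day 3 or between the knockdown groups was lost. Signal over background limits the 8 untested members and NDUFB4.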
